A study of Mus musculus with 16 samples.

Results

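The 7 myosin heavy chain genes described here, Myh1, Myh2, Myh3, Myh4, Myh7, Myh7b and Myh8, were taken from 19938 genes that had a probe set with a single gene symbol. Each was read from the single-symbol probe set with the highest mean over all arrays, and each of the 7 had just 1 such probe set. All 7 passed the filter on low values, a mean log2 value of 6.18, although Myh3 passed it narrowly with a mean of 6.27. Both Ppp3r1 groups of Myh3 had means below that value, so it passed only through the Ppp3cb line. The measurements are RMA log2 values (background-corrected, quantile-normalized and summarised per probe set) of gastrocnemius RNA from 16 male C57Bl6J mice, 1 Affymetrix Mouse Gene 1.0 array per mouse, and all animals in all groups had eaten a high-fat diet (40% of calories from butter fat) for 8 weeks or more. The groups, each of 4 arrays, were mice with a skeletal muscle-specific knockout of Ppp3r1 made with Mlc1f-Cre (Ppp3r1 KO), their WT littermates (Ppp3r1 WT), mice with a global knockout of Ppp3cb (Ppp3cb KO) and their WT littermates (Ppp3cb WT). The labels give no ages, and the titles do not say whether Ppp3r1 WT mice carry the Cre; if they lack it, Cre and loss of Ppp3r1 cannot be told apart. Mlc1f is the fast light chain gene Myl1, so the Cre acts in muscle fibres and other cells of the tissue keep Ppp3r1. Animals are named below by the numbers in the array titles.

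Myosin heavy chains are the motor proteins of the thick filament, and the chain a fibre makes sets how fast it shortens and gives the fibre its type. Myh7 is the slow chain of type I fibres, Myh2 the fast oxidative chain of type IIa, Myh1 the chain of type IIx and Myh4 the fastest, of the glycolytic type IIb fibres that dominate the mouse gastrocnemius. Myh3 and Myh8 are the embryonic and perinatal chains of developing and regenerating muscle, and Myh7b is a relative of Myh7 that carries a microRNA in an intron. Ppp3r1 and Ppp3cb encode the regulatory subunit and a catalytic subunit of calcineurin, a calcium-activated phosphatase that moves NFAT transcription factors into the nucleus and is known in mouse muscle for its role in slow and oxidative fibre genes.

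Of the 7 genes, 5 lie together on chromosome 11 in the order Myh3, Myh2, Myh1, Myh4 and Myh8, and Myh7 and Myh7b lie on chromosomes 14 and 2. The 250 bases before the annotated start of the 3 adult fast genes are shown because they share a stretch of sequence and because the values of these 3 genes are set side by side below. Sequences and positions are those of RefSeq on GRCm38.p6, all on the plus strand, and capitals mark the shared run of 20 bases. The windows are Myh2 at chr11:67170777-67171026, Myh1 at chr11:67199852-67200101 and Myh4 at chr11:67237562-67237811.
Myh2: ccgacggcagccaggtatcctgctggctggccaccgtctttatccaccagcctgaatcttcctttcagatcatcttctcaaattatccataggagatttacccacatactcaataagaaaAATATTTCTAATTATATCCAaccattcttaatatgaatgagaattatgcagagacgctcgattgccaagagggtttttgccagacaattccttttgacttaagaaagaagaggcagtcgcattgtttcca
Myh1: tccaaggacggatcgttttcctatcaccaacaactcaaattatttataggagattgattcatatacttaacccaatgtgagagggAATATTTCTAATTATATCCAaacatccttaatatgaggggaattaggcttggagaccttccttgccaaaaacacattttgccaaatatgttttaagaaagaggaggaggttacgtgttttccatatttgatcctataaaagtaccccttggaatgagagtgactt
Myh4: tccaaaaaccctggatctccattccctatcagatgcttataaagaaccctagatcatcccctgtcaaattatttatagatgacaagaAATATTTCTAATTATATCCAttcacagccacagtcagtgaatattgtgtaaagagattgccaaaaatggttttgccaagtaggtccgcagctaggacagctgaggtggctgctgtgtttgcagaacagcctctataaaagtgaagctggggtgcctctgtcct

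The shared run began at position -130 in Myh2, -165 in Myh1 and -163 in Myh4, counted from the annotated start. It occurred in 3 of 32817 windows of the same length in the RefSeq table, 0.00914%, and those 3 were these genes. Its inner 14 bases, TTCTAATTATATCC, occurred in 4 windows, the other being that of Myh8. In global alignments the 250 bases of Myh1 and Myh4 had 61.2% identical bases, those of Myh2 and Myh1 60.0% and those of Myh2 and Myh4 56.8%, against 49.6% to 54.4% for all other pairs of the 7 genes. The windows are fixed, and the effect of a shared run standing at different positions in them was not tested.

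Motifs were searched on both strands of these windows. The core letters of NFAT sites, GGAAA, were found 1 time in Myh2, 2 times in Myh1 and in Myh7, 3 times in Myh3 and 0 times in Myh4, Myh7b and Myh8, and 55.6% of all windows held at least 1. The MEF2 site, bound by factors that partner NFAT in muscle, matched 1 time in Myh1, Myh4 and Myh8 and in 2.92% of all windows, and each of these 3 matches overlapped a TATAAA on the other strand. TATAAA itself, present in 12.4% of windows, stood at -32 in Myh1, -31 in Myh4 and -29 in Myh3. These matches describe letters in a window and say nothing of binding.

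Myh7b and Myh7 also hold microRNA genes, shown because they lie inside chain genes described here. Capitals mark the seed, bases 2 to 8, which is UAAGACU in miR-499-5p and UAAGACG in miR-208b-3p and so differs in its last base. The positions are chr2:155622893-155622913 on the plus strand for miR-499-5p, within Myh7b, and chr14:54975710-54975731 on the minus strand for miR-208b-3p, within Myh7.
mmu-miR-499-5p: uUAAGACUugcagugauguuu
mmu-miR-208b-3p: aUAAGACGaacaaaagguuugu
The probe set of Mir499 lay between 4.54 and 5.27 on the 16 arrays, below the filter, so no level of it was compared.

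Several facts of the whole series touch these genes. On the arrays labelled Ppp3cb KO the Ppp3cb value was 10.48 (animal 18), 10.22 (animal 5), 11.74 (animal 6) and 11.61 (animal 9), and on those labelled WT it was 11.80 (animal 12), 11.67 (animal 2), 10.37 (animal 23) and 10.23 (animal 24). Thus 4 arrays, animals 6, 9, 23 and 24, go against their label, and the limma differences of the chains, the ratio of Myh2 over Myh1, the gene list counts and the pairs of chains called are given by label and again without these 4. All other values of that line follow the labels unless stated. Ppp3r1 followed its labels in order, at 8.98 to 9.28 in Ppp3r1 KO and 9.36 to 9.64 in WT muscle. Its difference was small, -0.32 (SE 0.13, limma adjusted p = 0.372), and was not called. In the same comparison 1.71% of clusters were lower in KO without overlap. All 8 skeletal muscle markers lay above the filter in the labelled tissue, led by the actin Acta1 (mean log2 value 14.4) and the creatine kinase Ckm. Array medians were 6.81 to 6.94 in the Ppp3r1 line and 6.68 to 6.77 in the Ppp3cb line, and arrays of the same group correlated between 0.965 and 0.992. An RMA value has no common zero between probe sets, so levels are compared between arrays for a given chain and not between chains. Whether a probe of one chain also binds the RNA of another, similar chain was not tested.

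**Figure D1:**
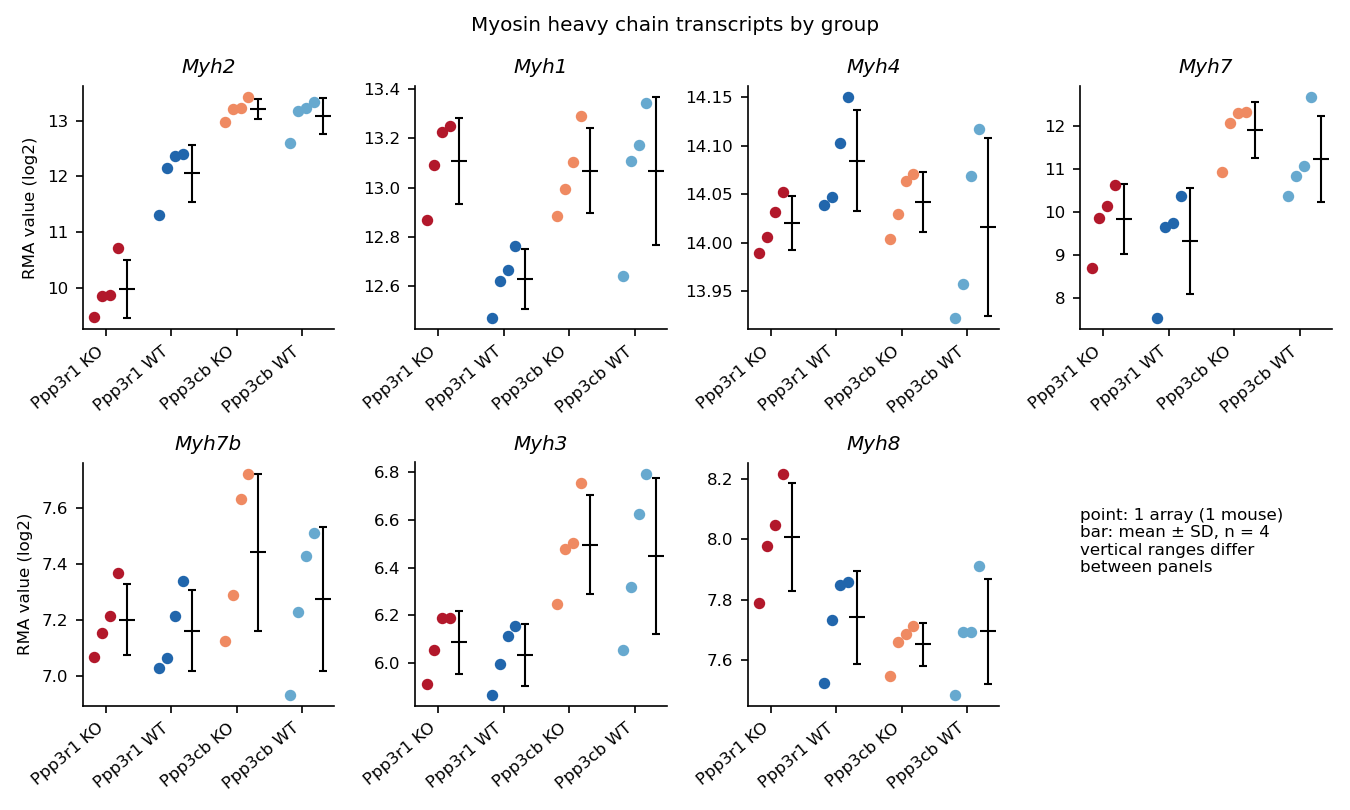
RMA value (log2) of each myosin heavy chain by group, with 1 point per array and bars for the mean ± SD of 4 arrays. The vertical ranges differ between panels. Myh2 in Ppp3r1 KO lies at 9.46 to 10.71, below all 12 other arrays, while Myh4 stays between 13.92 and 14.15 on all 16 arrays.

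The type IIa chain Myh2 was the chain that fell in Ppp3r1 KO muscle. Its log2 value was 9.85, 10.71, 9.46 and 9.86 in KO animals 331, 335, 414 and 416, and 12.37, 12.40, 12.15 and 11.30 in WT animals 334, 336, 413 and 415. The groups did not overlap, and the nearest arrays were KO animal 335 and WT animal 415. The mean fell by 2.08 on the log2 scale (SE 0.25, 95% interval -2.60 to -1.57, limma adjusted p = 0.00186), from 12.05 ± 0.51 (SD, n = 4) to 9.97 ± 0.52 (SD, n = 4), a 4.24-fold difference. Myh2 was the only transcript cluster (a probe set with 1 gene symbol) called, with an adjusted p under 0.05, of 15252 tested in this comparison, or 0.00656%, and the count became 12 when KO animal 416 was dropped, 3 when the Ppp3cb-line animal 12 was dropped and 2 when KO animal 331 was dropped. Animal numbers of this line begin with 33 or 41. Within the first series the difference was -2.10 and within the second it was -2.06, each from 2 KO and 2 WT arrays. With the Ppp3r1 line fitted alone the adjusted p was 0.0691 for the same difference. In whole tissue, fewer fibres of a type and less RNA per fibre cannot be told apart.

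The other adult fast chains did not follow Myh2. Myh1, of type IIx fibres, had log2 values of 12.87, 13.23, 13.09 and 13.25 in KO animals 331, 335, 414 and 416 and of 12.76, 12.67, 12.62 and 12.47 in WT animals 334, 336, 413 and 415. Every KO array was above every WT array, the opposite order to Myh2. The difference was 0.48 (SE 0.13, 95% interval 0.22 to 0.74) and was not called over all clusters (limma adjusted p = 0.363). It was 0.33 in the first series of animal numbers and 0.63 in the second. The groups of Myh2 and Myh1 each gave a two-sided exact permutation p of 0.0286, unadjusted and the smallest that 4 against 4 arrays allow, among 42 such tests over the 7 chains. At an unadjusted limma p under 0.05 stood Myh2, Myh1 and Myh8, 3 of 7 chains, and 11.7% of all clusters. Over all clusters 4.86% had groups that did not overlap in this comparison, 1.71% with KO lower and 3.15% with KO higher.

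Myh4, of type IIb fibres, was 14.05, 14.03, 14.01 and 13.99 in KO animals 331, 335, 414 and 416 and 14.15, 14.05, 14.10 and 14.04 in the WT animals. The groups overlapped and the difference was -0.06 (SE 0.05, 95% interval -0.16 to 0.03). Myh4 ranked between 70 and 85 among the 35557 probe sets of each array, whose maxima were 14.93 to 15.04. Any flattening of differences at this brightness was not tested. Its pooled SD within groups, 0.0568, was at percentile 0.295 of the tested clusters.

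The slow chain Myh7 was the most variable member. Its log2 value was 10.13, 10.61, 9.86 and 8.71 in the KO animals and 9.74, 9.65, 10.36 and 7.54 in the WT animals, in the same order of animals. The groups overlapped, and WT animal 415 was the lowest of all 16 arrays. The difference was 0.51 (SE 0.55, 95% interval -0.66 to 1.68), or -0.09 without WT animal 415, so at this spread no direction can be read. The pooled SD of Myh7 within groups was 0.947, at percentile 99.9 of the tested clusters, where the median SD was 0.156. The second highest among the chains was that of Myh2, 0.413.

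Myh7b, the relative of Myh7, had values of 7.07 to 7.37 in KO and 7.03 to 7.34 in WT muscle of the Ppp3r1 line, with a difference of 0.04 (SE 0.14, 95% interval -0.25 to 0.33). The embryonic chain Myh3 lay at 5.91 to 6.19 and 5.87 to 6.15, with a difference of 0.05 (SE 0.14, 95% interval -0.24 to 0.34). Both chains overlapped between the groups. The perinatal chain Myh8 was 8.05, 8.22, 7.98 and 7.79 in KO animals 331, 335, 414 and 416 and 7.86, 7.73, 7.85 and 7.52 in WT animals 334, 336, 413 and 415. The highest 3 arrays of Myh8 in the line were KO arrays, but KO animal 416 lay below WT animals 334 and 413. The difference was 0.27 (SE 0.11, limma adjusted p = 0.372) and was not called.

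Between arrays labelled Ppp3cb KO and WT no chain was called, and 0.0% of all clusters were. At an unadjusted limma p under 0.05 there were 264 clusters, 1.73%, and none was a chain. Myh2 was 13.23, 13.22, 12.98 and 13.43 in animals 18, 5, 6 and 9 labelled KO and 12.60, 13.18, 13.23 and 13.34 in animals 12, 2, 23 and 24 labelled WT. These ranges overlapped, with WT animal 12 the lowest. The difference was 0.13 (SE 0.25, 95% interval -0.39 to 0.64), or 0.33 (SE 0.37) without the 4 contradicted arrays, and -0.04 without animal 12.

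Myh1 in the same order of animals was 13.00, 13.11, 12.89 and 13.29 against 12.64, 13.17, 13.11 and 13.34, a difference of 0.00 (SE 0.13), or 0.14 (SE 0.16) without the 4 arrays. Animal 12 was again the lowest and animal 24 the highest. Myh7 was 10.93, 12.28, 12.05 and 12.32 on arrays labelled KO and 10.83, 12.66, 11.07 and 10.37 on arrays labelled WT. The difference of this slow chain was 0.66 (SE 0.55, 95% interval -0.50 to 1.83), and -0.13 (SE 0.81) without the 4 arrays. The groups of each of the 7 chains overlapped, as did those of all but 1.51% of clusters.

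For the remaining chains of this line the label groups overlapped as well. Myh4 was 14.00 to 14.07 on arrays labelled KO and 13.92 to 14.12 on those labelled WT, a difference of 0.03 (SE 0.05), or -0.04 without the 4 arrays. Myh7b was 7.13 to 7.72 and 6.93 to 7.51 (0.17, SE 0.14), or 0.20 without them. Myh3 was 6.25 to 6.75 and 6.06 to 6.79 (0.05, SE 0.14), or 0.15. Myh8 was 7.55 to 7.71 and 7.48 to 7.91 (-0.04, SE 0.11), or 0.00. None of these was called with or without the 4 arrays.

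The same 8 arrays were also read by their Ppp3cb value, below a log2 value of 11 (animals 18 and 5 labelled KO, 23 and 24 labelled WT) or above it (animals 6 and 9 labelled KO, 12 and 2 labelled WT). These classes come from a measured value, so they are described without a test. Myh2 was 13.22 to 13.34 below and 12.60 to 13.43 above, and Myh1 was 13.00 to 13.34 below and 12.64 to 13.29 above. Myh4 was 13.92 to 14.07 below and 14.00 to 14.12 above. For each of these fast chains the ranges overlapped.

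The slow chain Myh7 was 10.37 to 12.28 below the limit and 10.83 to 12.66 above it. Of the 4 lower arrays 3 were at or under 11.07 and animal 5 was at 12.28, while of the 4 upper arrays 3 were at or over 12.05 and animal 12 was at 10.83. Myh7b was 7.13 to 7.72 against 6.93 to 7.63, Myh3 6.32 to 6.79 against 6.06 to 6.75 and Myh8 7.69 to 7.71 against 7.48 to 7.91. All 7 chains overlapped between the classes, while 12.2% of all clusters did not.

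The KO effects of both lines were set against each other for the 3 chains with the smallest p in the Ppp3r1 line. The Ppp3r1 effect minus the Ppp3cb effect was -2.21 for Myh2 (SE 0.35, 95% interval -2.94 to -1.48), with a limma adjusted p of 0.0914, so the difference was not called. In this limma comparison 0.0% of all clusters were called, and 5.31% stood below an unadjusted p of 0.05. The cluster with the smallest p in this comparison was Myh2 itself. Adjusted p-values for Myh2 over the omission of single arrays ran from 0.0042 to 0.401, and the call was made without KO animal 335 (0.00521), without WT animal 415 (0.0042) and with the animal-number series as a block (0.00858). Without the 4 contradicted arrays it was -2.41 (SE 0.45, limma adjusted p = 0.106). For Myh1 the difference of effects was 0.48 (SE 0.18) and for Myh8 it was 0.31 (SE 0.15), both with an adjusted p of 0.821, and without the 4 arrays 0.34 (SE 0.19) and 0.27 (SE 0.21).

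The lines themselves differed in several chains. Ppp3r1 WT muscle minus Ppp3cb WT muscle was -1.03 for Myh2 (SE 0.25, limma adjusted p = 0.00548), -0.44 for Myh1 (SE 0.13, adjusted p = 0.0145), -1.91 for Myh7 (SE 0.55, adjusted p = 0.0153) and -0.42 for Myh3 (SE 0.14, adjusted p = 0.0276). Myh4, Myh7b and Myh8 differed by 0.07, -0.11 and 0.05 and were not called. These 4 of 7 stand beside 35.0% of all clusters called, made up largely of the 24.3% of all clusters called lower in the Ppp3r1 line, so a call here sets no chain apart, and litter, line and any difference in processing cannot be told apart. Of the 4, Myh3 passed the filter of 6.18 only through the Ppp3cb line. Its group means were 6.50 and 6.45 there, against 6.09 and 6.03 in the Ppp3r1 line. Its call is therefore no support for a difference between the lines. Without the 4 contradicted arrays Myh7 was still called (-2.42, limma adjusted p = 0.0282), while Myh2 (-0.84, adjusted p = 0.0685), Myh1 (-0.28, adjusted p = 0.139) and Myh3 (-0.31, adjusted p = 0.122) were not. Dropping animal 2 of Ppp3cb WT ended the call of Myh7 (-1.44, limma adjusted p = 0.0527), and dropping animal 2 or 24 of Ppp3cb WT or animal 336 or 415 of Ppp3r1 WT ended that of Myh3 (adjusted p up to 0.0864), as did array weights (-0.34, limma adjusted p = 0.0558).

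Ordered by group mean, Myh2 stood at 13.21 in Ppp3cb KO, 13.09 in Ppp3cb WT, 12.05 in Ppp3r1 WT and 9.97 in Ppp3r1 KO, and the first 2 of these overlapped. Over the whole lines its 8 values of 9.46 to 12.40 lay below the 8 of 12.60 to 13.43, an order shared by 12.3% of clusters and by no other chain. Myh1 stood at 13.11 in Ppp3r1 KO, 13.07 in Ppp3cb KO, 13.07 in Ppp3cb WT and 12.63 in Ppp3r1 WT, the first 3 overlapping. Thus Myh1 in Ppp3r1 KO was within the range of the Ppp3cb line, with a difference from Ppp3cb KO of 0.04 (exact permutation p = 0.8, n = 4 against 4). Myh7 stood at 11.90, 11.23, 9.83 and 9.32 in Ppp3cb KO, Ppp3cb WT, Ppp3r1 KO and Ppp3r1 WT, and each group overlapped the next in this order. Myh8 was highest in Ppp3r1 KO at 8.01, followed by 7.74 in Ppp3r1 WT, 7.70 in Ppp3cb WT and 7.65 in Ppp3cb KO, again with each overlapping the next. Myh4 and Myh7b overlapped in every pair of groups. Myh3 stood at 6.50 in Ppp3cb KO, 6.45 in Ppp3cb WT, 6.09 in Ppp3r1 KO and 6.03 in Ppp3r1 WT, and again neighbours overlapped.

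Differences between chains on the same array remove a shift that is equal for both chains, but not one that depends on their brightness. Myh2 minus Myh1 was -3.02, -2.52, -3.63 and -3.39 in KO animals 331, 335, 414 and 416 and -0.39, -0.27, -0.47 and -1.17 in WT animals 334, 336, 413 and 415. The Ppp3r1 groups stood wide apart, and both stood below the Ppp3cb line, where the value was 0.09 to 0.23 on arrays labelled KO and -0.04 to 0.12 on those labelled WT. The KO minus WT difference was -2.56 in the Ppp3r1 line, a 5.91-fold shift of Myh2 against Myh1, with -2.44 in the first number series and -2.69 in the second. For the Ppp3cb line it was 0.12 (two-sided exact permutation p = 0.0857, n = 4 against 4), and 0.19 without the 4 contradicted arrays, with 0.11 and 0.23 in KO against -0.04 and 0.01 in WT.

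Of the 8 ratios compared, 5 did not overlap between the Ppp3r1 groups and 0 were free of overlap between the Ppp3cb groups. Beside Myh2 over Myh1 these were Myh2 over Myh4 (-2.02), Myh1 over Myh4 (0.54), Myh7 over Myh2 (2.59) and Myh8 over Myh4 (0.33). Each had a two-sided exact permutation p of 0.0286, the smallest possible, and 0.0914 after Benjamini-Hochberg adjustment over 16 tests, so none passed a threshold of 0.05. The 5 ratios share chains and are not separate results. Those with Myh2 repeat its lack of overlap, and Myh1 over Myh4 repeats that of Myh1, since Myh4 hardly varied. The share of non-overlapping ratios among other clusters was not computed. With quantile normalization repeated over all arrays Myh8 over Myh4 had an exact permutation p of 0.0571. Myh1 over Myh4 was 0.39 in the first number series and 0.70 in the second. Myh7 over Myh4 (0.57, -5.28 to -3.42 in KO against -6.50 to -3.74 in WT) overlapped. In the Ppp3cb line Myh7 over Myh2 was 0.54 by label (exact permutation p = 0.371) and -0.47 without the 4 arrays. Myh7b over Myh7 was -0.50 by label (exact permutation p = 0.343) and 0.34 without them. The values without the 4 arrays were not tested.

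**Figure D2:**
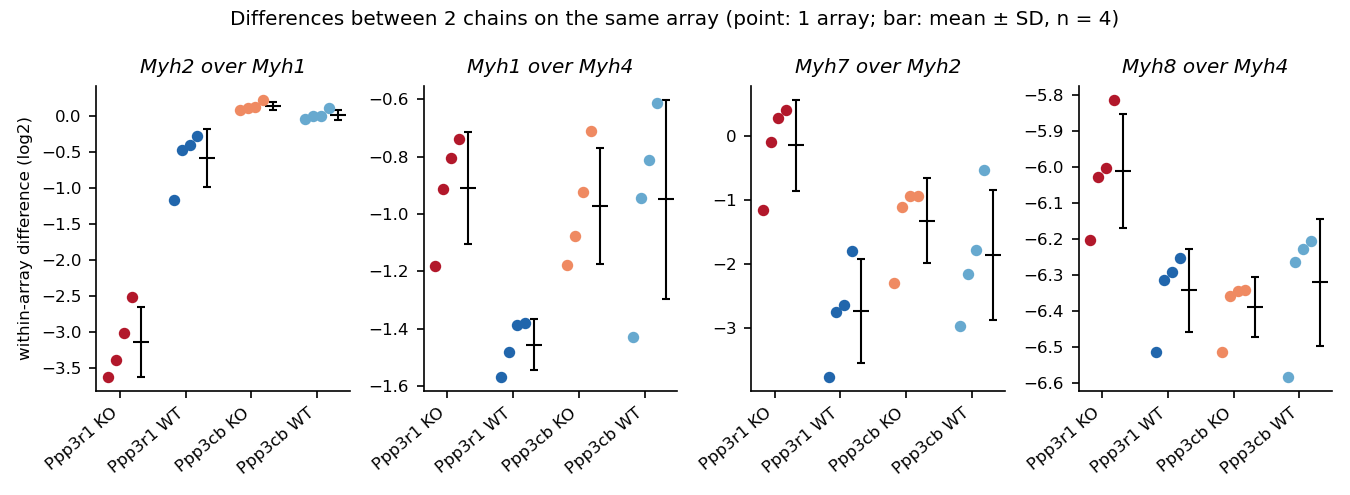
Difference between 2 chains on the same array (log2) by group, with 1 point per array and bars for the mean ± SD of 4 arrays. Myh2 over Myh1 lies at -3.63 to -2.52 in Ppp3r1 KO, -1.17 to -0.27 in Ppp3r1 WT and -0.04 to 0.23 in the Ppp3cb line, and the zero of each panel is arbitrary.

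Array-to-array covariation was read from deviations from the group mean, so that differences between groups do not enter. The 16 arrays give 21 pairs of chains, of which 19 had a positive Pearson correlation, with a median of 0.39. Values on the same array share its labelling and normalization. After Benjamini-Hochberg adjustment over the 21 pairs 6 passed 0.05 with Pearson's r and 3 with Spearman's rho, and 0 passed without WT animal 415 (smallest adjusted p 0.159), where the Pearson correlations of those 6 pairs were 0.59 to 0.71. Without the 4 contradicted arrays 4 pairs passed with Pearson's r over 12 arrays, of which 2 were among the 6 (Myh7 with Myh8, r = 0.87, adjusted permutation p = 0.0318, and Myh3 with Myh8, r = 0.94, adjusted permutation p = 0.00924). The other 2 were Myh3 with Myh4 (r = 0.75, adjusted permutation p = 0.0318) and with Myh7 (r = 0.79, adjusted permutation p = 0.0395). The 4 pairs no longer called had r of 0.56 to 0.76 and adjusted permutation p of 0.114 to 0.564. Leaving those arrays out keeps 2 arrays in each Ppp3cb group. Deviations from a mean of 2 are equal and opposite, so the 12 arrays hold fewer independent values than their number.

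Among adult fast chains Myh2 and Myh1 varied together (r = 0.66, permutation p = 0.00529, adjusted 0.0312; rho = 0.71, permutation p = 0.00241, adjusted 0.0304). Without the 2 arrays farthest from the median of Myh2, WT animal 415 and KO animal 335 of the Ppp3r1 line, r was 0.77. Within the Ppp3cb line r was 0.97 and within the Ppp3r1 line 0.60 (n = 8 arrays each). Myh4 had r of 0.01 with Myh2 and -0.31 with Myh1, and 0.49 and 0.25 without the 4 contradicted arrays.

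Myh7 varied with the perinatal chain Myh8 (r = 0.76, permutation p = 0.00595, adjusted 0.0312; rho = 0.76, permutation p = 0.00435, adjusted 0.0304), at 0.93 in the Ppp3r1 line and 0.50 in the Ppp3cb line. Without WT animal 415 and KO animal 416 r was 0.55. Myh3 and Myh8 had r = 0.70 (permutation p = 0.00429, adjusted 0.0312; rho = 0.73, permutation p = 0.00304, adjusted 0.0304), and 0.77 without animals 12 and 24 of Ppp3cb WT. Myh3 also had r of 0.73 with Myh1 (permutation p = 0.0141, adjusted 0.0493; rho = 0.60, permutation p = 0.0377, adjusted 0.153) and of 0.61 with Myh2 (permutation p = 0.00304, adjusted 0.0312; rho = 0.61, permutation p = 0.0111, adjusted 0.0585). Without the 2 farthest arrays these were 0.79 and 0.71, and in the Ppp3cb line 0.94 and 0.89. The sixth pair, Myh2 and Myh8, had r = 0.73 (permutation p = 0.0131, adjusted 0.0493; rho = 0.57, permutation p = 0.0511, adjusted 0.153), or 0.41 without WT animal 415 and KO animal 335. In the Ppp3r1 line Myh3 had r of 0.04 with Myh1 and 0.89 with Myh7. Its values in that line spanned only 5.87 to 6.19, near or below the filter of 6.18, and the effect of such low signal was not tested. Myh2 and Myh7 had r = 0.53 (permutation p = 0.106, adjusted 0.279), which became -0.05 without WT animal 415 and KO animal 335, so that relation rests on those arrays.

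**Figure D3:**
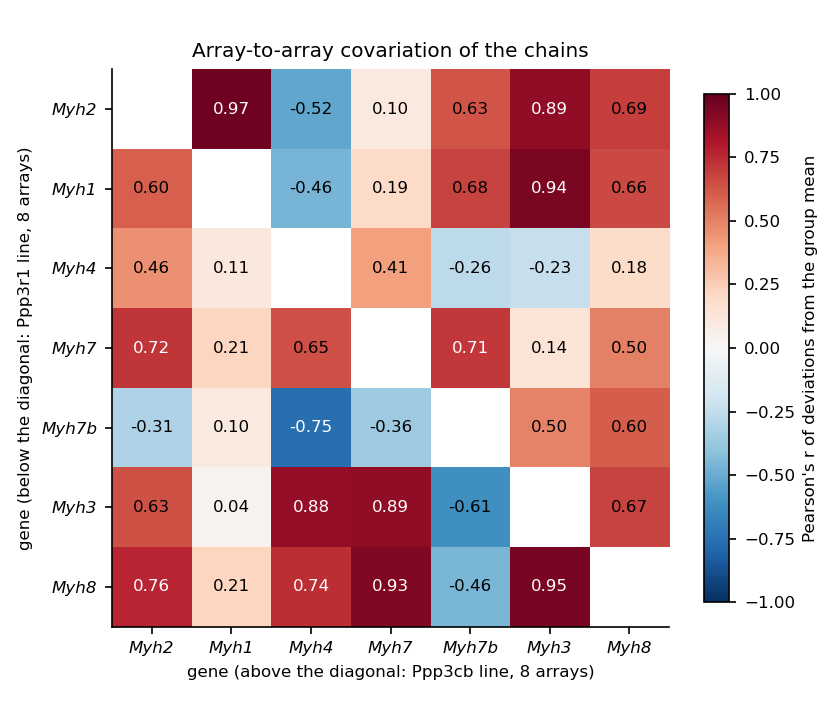
Pearson's r between deviations from the group mean for each pair of chains, in the Ppp3r1 line below the diagonal and in the Ppp3cb line above it (8 arrays each). Myh2 and Myh1 stand at 0.60 and 0.97, Myh7 and Myh8 at 0.93 and 0.50.

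The genes whose deviations followed each chain most closely over the 16 arrays were picked by their correlation, so the values are a description. For Myh7 they were Tnnc1 (0.97) and Tnni1 (0.95), the slow troponins C and I, Atp2a2 (0.95), the slow-fibre calcium pump, Tpm3 (0.95), a slow tropomyosin, and Myl3 (0.95), a slow light chain. For Myh1 they were Atp1b4 (0.93), Smtnl1 (0.93), the cochaperone Dnaja4 (0.92), myoglobin, Mb (0.90), and Acaa2 (0.87), an enzyme of mitochondrial fatty acid oxidation.

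For Myh4 the closest were Trdn (0.97), the triadin of the calcium release complex, Lsm6 (0.96), Rbbp7 (0.91), Naa30 (0.90) and Ube2v2 (0.90). For Myh2 they were Wdr53 (0.83), Gins3 (0.82), Pdik1l (0.81), Mtx2 (0.81) and Fhl1 (0.80), a LIM protein abundant in oxidative muscle. These correlations of Myh2 were lower than those of the other 3 adult chains. Myh8 was followed by Scube2 (0.88), Atp2a2 (0.85) and Elavl2 (0.85), Myh3 by Zfp831 (0.86), Armc2 (0.84) and Nnt (0.83), and Myh7b by Ndrg4 (0.82), Enc1 (0.81) and Kcnn3 (0.80).

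The slow-fibre partners of Myh7 were read from 16 genes, all tested. In the Ppp3r1 comparison 12 had a higher and 4 a lower mean in KO, 0 were called, and the median difference was 0.17 against 0.02 over all clusters. The 4 with the smallest p were Myoz2, a Z-disc protein, at -0.76 (SE 0.34), the stretch-responsive Ankrd2 at 0.49 (SE 0.29), Pln, the inhibitor of the slow calcium pump, at 0.26 (SE 0.18), and Tnnc1 at 0.74 (SE 0.55). All 16 had a higher mean on arrays labelled Ppp3cb KO (median 0.34 against 0.01) and 0 were called, while without the 4 contradicted arrays 14 of 16 did (median 0.17 against 0.02) and 0 were called. All 16 were called lower in Ppp3r1 WT than in Ppp3cb WT, where 24.3% of all clusters were called lower, with a median of -1.54 against -0.10 over all clusters, beside the difference of -1.91 in Myh7. Without the 4 arrays 15 of 16 were called lower, beside 14.3% of all clusters, with a median of -1.80 against -0.09. The median correlation of the 16 with Myh7 was 0.70, against -0.14 over all clusters, and with Myh2 it was 0.53. Single genes differed widely, from 0.05 (Csrp3) to 0.97 (Tnnc1) with Myh7 and from -0.12 to 0.80 with Myh2.

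A marker list of 5 slow-fibre genes (Myl2, Myl3, Tnnt1, Tnni1 and Tnnc1), summed on each array, moved with Myh7 across arrays (r = 0.98 of deviations). Its summed log2 level was 10.10 to 12.07 in Ppp3r1 KO, 9.56 to 11.92 in Ppp3r1 WT, 13.13 to 14.12 in Ppp3cb KO and 12.24 to 14.25 in Ppp3cb WT (13.13 and 13.93 against 12.52 and 14.25 without the 4 arrays), and 0 of 5 had an unadjusted p under 0.05 in either line. The level was lowest in WT animal 415, as was Myh7. Its correlation with Myh2 was 0.52. The summed log2 level of 4 adipocyte markers (Adipoq, Plin1, Lep and Cidec) was highest in KO animal 416 (10.97) and WT animal 415 (10.73). Those 2 arrays also had the lowest Myh7 of the Ppp3r1 line. On all other arrays the adipocyte level was at most 10.12, and its deviations had r of -0.56 with Myh7 and -0.37 with Myh2. The part of slow-fibre or adipocyte content in the values of the chains was not tested.

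**Figure D4:**
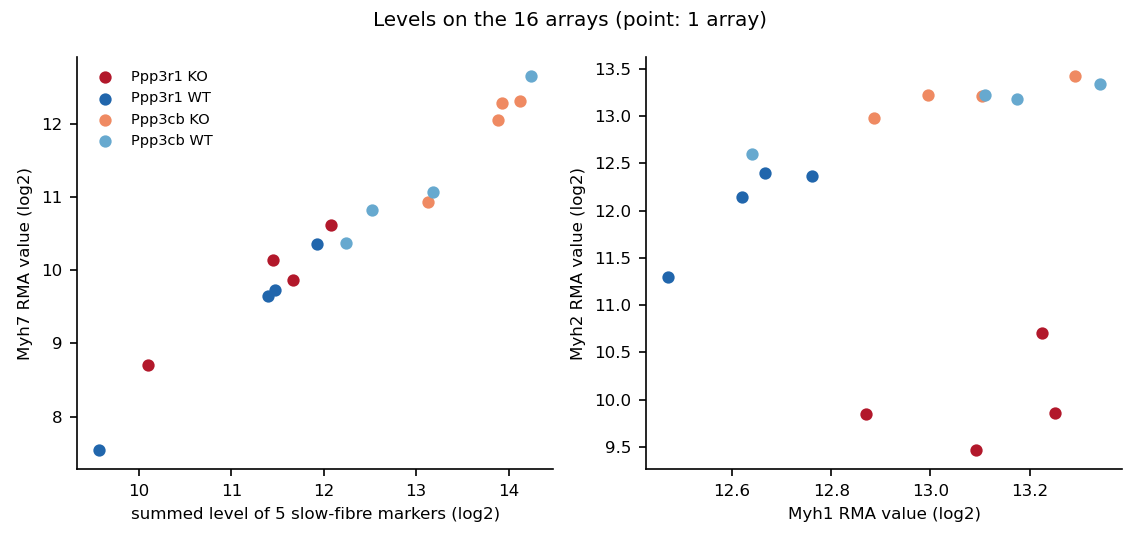
Left, Myh7 RMA value (log2) against the summed level (log2) of 5 slow-fibre markers; right, Myh2 against Myh1 (log2); each point is 1 of 16 arrays, coloured by group. Myh7 follows the markers from 7.54 to 12.66, and the 4 Ppp3r1 KO arrays stand apart at the right panel's lower right, with Myh2 at 9.46 to 10.71 and Myh1 at 12.87 to 13.25.

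Fast-fibre partners, 15 genes, had 4 higher and 11 lower means in Ppp3r1 KO, with 0 called and a median of -0.09. Those with the smallest p were Tnnc2, the fast troponin C, at -0.23 (SE 0.07), Myl1, whose Mlc1f product names the Cre of this line, at -0.17 (SE 0.05), the calcium store protein Casq1 at -0.37 (SE 0.14) and the calcium buffer Pvalb at -0.13 (SE 0.05). On arrays labelled Ppp3cb KO 13 of 15 had a higher mean and 0 were called, and without the 4 arrays 3 of 15 did. The summed level of the 8 general muscle markers was 16.75 to 16.81 in Ppp3r1 KO and 16.82 to 16.86 in WT, without overlap, with 1 of 8 at an unadjusted p under 0.05. Among single clusters 4.86% did not overlap in this comparison. The mean of Des was higher in KO (13.79 against 13.77), and those of the other markers were lower. Tendon markers overlapped, at 9.62 to 10.66 in KO and 10.50 to 11.26 in WT. Of these, 4 of 5 had an unadjusted limma p under 0.05, beside 11.7% of all clusters, and 0 were called. The means of Tnmd, Fmod, Thbs4 and Kera were lower in KO, while that of Scx was higher (7.54 against 7.26). The part of the muscle and tendon markers in the difference of Myh2 was not tested.

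Proteins that build and turn over the thick filament, 12 tested of 13 listed, had 5 higher and 7 lower means and 0 called in the Ppp3r1 comparison. Mybph, the myosin binding protein H of the thick filament, had the smallest p of the list, at -1.65 (SE 0.38, limma adjusted p = 0.363), from 10.50 ± 0.31 (SD, n = 4) in WT to 8.85 ± 0.77 (SD, n = 4) in KO. Myom1 of the M-band had 0.18 (SE 0.08), Smyd1, a methyltransferase needed for thick filament assembly in zebrafish, -0.24 (SE 0.13), and Trim55 -0.26 (SE 0.15). Mybph had 0.09 (SE 0.38) in the Ppp3cb line by label and -0.97 (SE 0.45, limma adjusted p = 0.812) without the 4 contradicted arrays.

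Among the other sarcomeric and nonmuscle heavy chains 5 of 6 were tested, and Myh13, the chain of eye muscles at the end of the chromosome 11 cluster, was below the filter. All 5 had a slightly higher mean in Ppp3r1 KO (median 0.03) and 0 were called. The nonmuscle chain Myh14 had 0.23 (SE 0.12), the smooth muscle chain Myh11 0.09 (SE 0.16), and the nonmuscle chains Myh9 and Myh10 0.03 (SE 0.11) and 0.02 (SE 0.14). Myh6, the alpha cardiac chain that neighbours Myh7, had 0.02 (SE 0.16) in this line and 0.42 (SE 0.16, limma adjusted p = 1.00) in the Ppp3cb line, or 0.07 (SE 0.21) without the 4 arrays.

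Genes of development and denervation, the setting in which Myh3 and Myh8 are usually seen, had 10 higher and 3 lower means of 13 in Ppp3r1 KO, 0 called, with a median of 0.15. Myf6, a myogenic factor of mature fibres, had 0.40 (SE 0.14), Runx1 0.44 (SE 0.18), Gadd45a 0.43 (SE 0.17) and the developmental troponin Tnnt2 -0.21 (SE 0.12). In the Ppp3cb line 4 of 13 had a higher mean on arrays labelled KO and 0 were called, against 9 of 13 without the 4 arrays. Transcriptional regulators of heavy chain genes, 25 tested of 26, had 11 higher and 14 lower means and 0 called. The nuclear receptor Esrrg had -0.47 (SE 0.16), Mef2c -0.33 (SE 0.13), the cofactor Vgll2 0.48 (SE 0.19) and Smarcd3, a chromatin remodelling subunit, -0.54 (SE 0.22), all with a limma adjusted p of 0.363 or more, and in the Ppp3cb line 21 of 25 had a higher mean by label and 9 of 25 without the 4 arrays, with 0 called in both.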

How the data were processed

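RNA of 16 gastrocnemius muscles, each from a separate mouse, was hybridised to 16 arrays, and 4 arrays per group limit how precise a mean can be. The log2 values deposited by the authors came from GCOS 1.0 and RMA, according to the submitters' processing notes. Whether RMA was run on both lines at once is not given in the sources used here. The authors also deposited ratio columns, which matched the linear value over the median of its line within a tolerance of 0.0001 and served only as a check. The platform's annotation gave 21789 probe sets exactly 1 symbol and 1621 several, and it did not list 12147.

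The 15252 single-symbol probe sets (clusters) with a mean at or above the 30th percentile, 6.18, were tested. Group means of all 16 arrays were fitted with limma 3.58.1 in R 4.3.3 (intensity trend, two-sided, Benjamini-Hochberg over all clusters, called under 0.05), leaving 12 residual degrees of freedom. Single chains and ratios were compared by exact permutation of 4 against 4 arrays (70 arrangements), and correlations by 100000 permutations within groups, with numpy 2.4.6 and scipy 1.17.1. The fit was tested on simulated data. The members, gene lists and marker lists were chosen with earlier results of these data known. Named genes were the members, the targeted genes, the closest followers of each chain (5 or 3) and up to 4 genes per list with the smallest p in the Ppp3r1 comparison, and from the marker lists only those that bear on a result. Alternatives changed the filter, normalization, array weights, variance prior, block, fit per line and each array left out. Sequences are from RefSeq tables, which held all 7 members.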

Additional observations from a re-analysis of the deposited data

Results flagged for a closer look

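Of 60 sets of 4 arrays checked for a lone outlying array, 28 of chain values and 32 of ratios, 3 held one whose gap to the nearest of the others exceeded the critical share of the range, and chance alone marks about 1 in 20. All 3 are ratios in the Ppp3cb line. Myh7 over Myh2 was -2.30 in animal 18 labelled KO, against -1.11 to -0.93 in the other arrays of that label. Myh8 over Myh4 was -6.52 in animal 6 labelled KO, against -6.36 to -6.34, and -6.58 in animal 12 labelled WT, against -6.26 to -6.21.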

How the results depend on the processing

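The fall of Myh2 in Ppp3r1 KO was -2.33 to -1.91 over the omission of single arrays (highest limma adjusted p 0.0202), and only fitting the line alone ended its call (-2.08, adjusted p 0.0691). Clusters called there numbered 2 with array weights, 0 with the line fitted alone, 2 at a threshold of 0.10 and 1 to 12 over omissions. In the Ppp3cb line they numbered 14 without the 4 contradicted arrays, an alternative chosen after seeing the data, and 0 to 2 over omissions. For the difference of effects they numbered 1 with the animal-number series as a block, 7 without the 4 arrays, 1 at 0.10 and 0 to 1 over omissions, and Myh2 was -2.21 with that block (adjusted p 0.00858) and -2.46 to -2.04 over omissions. Between WT groups 5343 clusters were called, 3324 without the 4 arrays and 3099 to 5784 over omissions, and Myh2 was -0.84 without the 4 arrays. Pairs of chains called numbered 6, against 3 with Spearman, 2 in the Ppp3r1 line, 3 in the Ppp3cb line, 4 without the 4 arrays and 0 without WT animal 415, both of these settings chosen after seeing the data. The 6 pairs, and the 4 without the 4 arrays, include pairs with Myh3, which lay near the filter. Myh2 over Myh1 in the Ppp3cb line was 0.19 without the 4 arrays.

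Uncalled chain differences that changed sign were these. In the Ppp3r1 line Myh7 ran from -0.0867 to 0.882 over omissions, Myh7b from -0.0164 to 0.0981 and Myh3 from -0.00129 to 0.112. In the Ppp3cb line Myh2 ran from -0.0373 to 0.21, Myh1 from -0.139 to 0.0946, Myh4 from -0.00593 to 0.0593, Myh3 from -0.0833 to 0.163 and Myh8 from -0.114 to 0.0283. With repeated quantile normalization Myh1 was -0.00588 there and Myh4 -2.8e-05. Without the 4 arrays Myh4 was -0.0431, Myh7 -0.134 and Myh8 0.00172. Between WT groups Myh4 was -0.0129 with quantile normalization and -0.00835 without the 4 arrays, and Myh8 ran from -0.0242 to 0.118 over omissions. Without the 4 arrays 5 of the 8 ratios of the Ppp3cb line had the other sign. Ratios changed sign over omissions too: in the Ppp3r1 line Myh7 over Myh4 (-0.0066 to 0.937) and Myh7b over Myh7 (-0.861 to 0.144), and in the Ppp3cb line Myh2 over Myh4 (-0.0802 to 0.205), Myh1 over Myh4 (-0.182 to 0.0888) and Myh3 over Myh4 (-0.126 to 0.157). The cause of these changes was not tested. No second probe set of a member allowed that alternative to be run. No paired analysis was run because the labels do not pair single KO and WT animals, and the animal-number series of the Ppp3r1 line was fitted only as a block. Depth does not apply to arrays, and the effect of signal near background or saturation was not tested.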
